A study of Mus musculus with 22 samples.

Results

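Macrophage and monocyte markers are described here in the distal colon of mice with and without chronic colitis. They are 10 genes, namely Cd68, Adgre1, Csf1r, Lyz2, Mrc1, Cd163, Itgam, Itgax, Spp1 and Chil3, taken by symbol from the 46078 genes of the count table. Symbols alone select the rows, 1 row for each. RNA sequencing of poly(A) RNA was performed on 22 distal colons, 1 library per mouse. C57BL/6 mice (8 libraries, 4 males and 4 females, 14 weeks of age) were the wild-type controls. Winnie mice (7 libraries, 3 males and 4 females, 14 weeks) carry a missense mutation of Muc2, the gene for the main mucin of goblet cells, and develop colitis spontaneously. Winnie-Prolapse mice (7 libraries, 4 males and 3 females, 18 weeks) are Winnie mice with rectal prolapse. No mouse received a treatment. The mutation is present in every cell of the animal, and the older age of the Winnie-Prolapse group cannot be told apart from the prolapse.

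Macrophages of the colon wall are replaced throughout life by blood monocytes, which enter the tissue and mature through signals of the receptor Csf1r. Mature macrophages of the healthy mucosa take up dying cells and bacteria without strong inflammation, and carry scavenger receptors such as Cd163 and Mrc1. In colitis, monocytes and neutrophils enter the wall, and both carry the integrin chain Itgam. In whole tissue, fewer cells of a type and less RNA per cell cannot be told apart, and this holds for every level below.

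Libraries held from 24.8 to 36.3 M counts, and levels are given as CPM (counts divided by the library total in M). Several libraries stood apart. C57BL/6 replicate 7 was the lowest of its group for 6 of the 10 markers and had the highest sum of 10 smooth muscle and fibroblast genes (10862 CPM against at most 7832 CPM in the other controls). Its sum of 10 epithelial markers was also the highest (22408 CPM against at most 16542 CPM). Its 14 neutrophil markers summed to 4.78 CPM, against at least 244 CPM in the other controls. Winnie replicate 5 was the lowest of its group for 7 of the 10. In Winnie-Prolapse replicate 6, 8 mammary and milk genes summed to 189809 CPM, against at most 59.4 CPM in the other Winnie-Prolapse libraries. Some results that rest on these libraries are given with and without them.

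Of the 10 markers, 7 were higher in Winnie-Prolapse mice than in C57BL/6 mice by the limits used, and the mean of Winnie lay between those groups for 9 of the 10. A gene was called at an adjusted p under 0.001 and a change of at least 1.5-fold, the limits of the study (edgeR quasi-likelihood test, Benjamini-Hochberg adjustment over all genes tested). In Winnie-Prolapse against C57BL/6 mice, 7 of the 10 markers were called higher and 0 lower. Of all 17397 genes, 9.84% were called higher, 8.47% lower and 18.3% in either direction. Lyz2 and Itgax missed the limit with adjusted p = 0.00157 and 0.0023, though each was called in 1 of 15 fits without 1 library. Cd163 was not higher. For 4 of the 10, namely Cd68, Adgre1, Itgam and Chil3, the CPM of the groups did not overlap, beside 16% of all genes. Chil3 passed the filter on low counts only through the Winnie-Prolapse libraries, and Spp1 through 6 Winnie-Prolapse and 2 C57BL/6 libraries. Their calls therefore add nothing to the count of called markers, and Chil3 adds nothing to the count without overlap. Without Chil3 and Spp1, 5 of 8 were called higher. By limma-voom neither was called, and 6 of the other 8 were.

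In Winnie against C57BL/6 mice, 0 of the 8 markers tested were called, beside 0.0925% of 17289 genes. Of the 8, 5 had an unadjusted p under 0.05, beside 39.9% of all genes, and DESeq2 called 2 markers (Itgam and Chil3, the latter outside the edgeR filter), beside 5.5% of the genes it tested. At an adjusted p under 0.05 the edgeR test gave 3 higher, namely Csf1r, Itgam and Itgax, beside 7.42% of all genes. Leaving out each library in turn, the adjusted p of Itgax there rose to at most 0.0993, and that of Csf1r and Itgam to at most 0.0477 and 0.02. Without Winnie replicate 5, Adgre1, Cd68 and Mrc1 also had an adjusted p under 0.05 (0.00498, 0.0212 and 0.0234). That library was the lowest of its group for each of them, so leaving it out raises these differences and adds no support. In that fit 3.89% of all genes were called at an adjusted p under 0.001, beside 0.0925% with every library. In Winnie-Prolapse against Winnie mice, 0 of 10 were called, beside 0% of 17041 genes. An unadjusted p under 0.05 was found for 7, Spp1 and Chil3 among them, beside 27.8% of all genes. DESeq2 called 2 in Winnie-Prolapse against Winnie, Spp1 and Chil3, beside 2.93% of the genes it tested, and 0 of the other 8. At an adjusted p under 0.05, 4 were higher (Lyz2, Itgam, Spp1 and Chil3), beside 4.27% of all genes. Without the libraries that stood apart these had adjusted p from 0.0506 to 0.139, so that none of the 4 passed 0.05. Here too Spp1 and Chil3 passed the filter on low counts through the Winnie-Prolapse libraries, with 3 and 5 Winnie libraries over its limit, and without them 2 of 8 were higher.

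**Figure D1:**
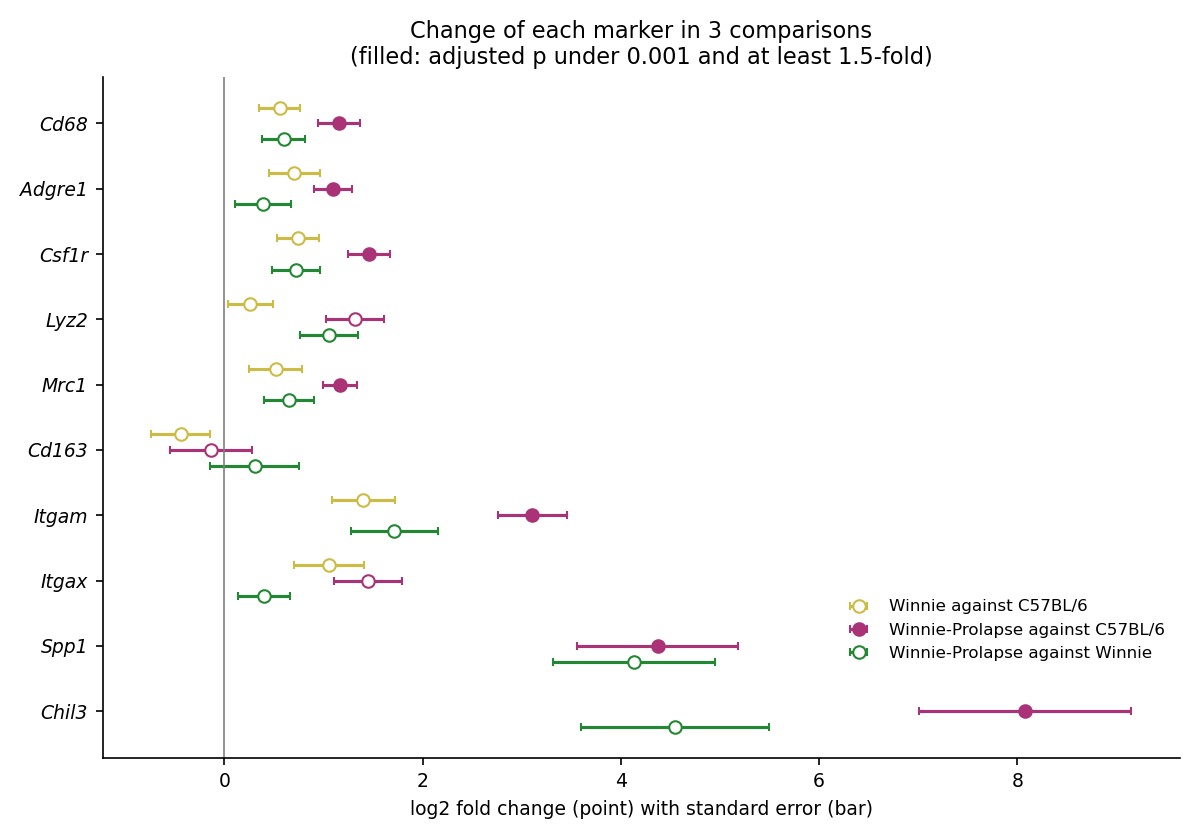
The plot gives the log2 fold change (point) and its standard error (bar) of each marker in 3 comparisons, with filled points for called changes. Only points of Winnie-Prolapse against C57BL/6 are filled, and the increases run from 1.09 for Adgre1 to 8.08 for Chil3, while Cd163 lies on both sides of 0.

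**Figure D2:**
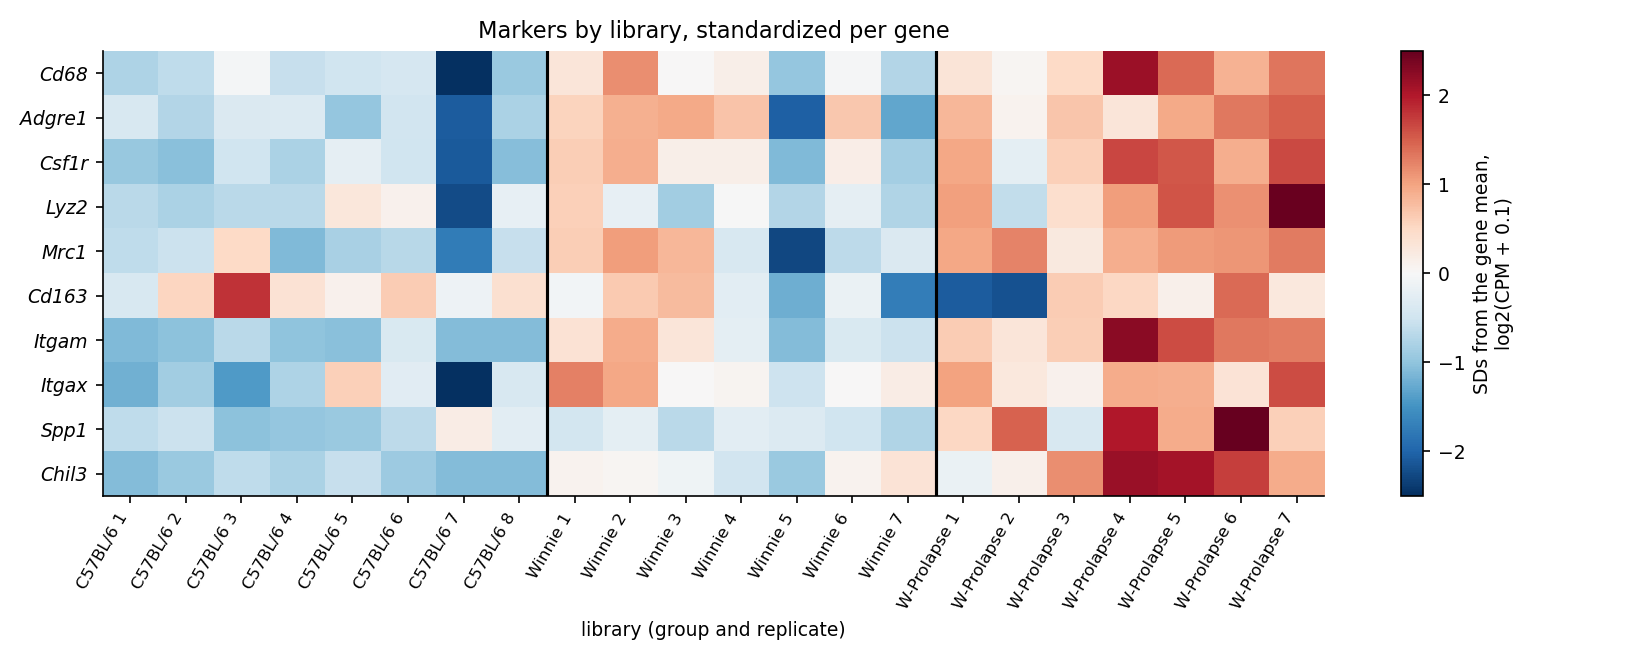
Rows are the markers and columns the 22 libraries by group and replicate, with the colour giving the number of SDs from the mean of each gene on the log2(CPM + 0.1) scale. Rows other than Cd163 are mostly blue in C57BL/6 and mostly red in Winnie-Prolapse, C57BL/6 replicate 7 and Winnie replicate 5 are blue in most rows, and the 3 columns from Winnie-Prolapse replicate 4 to 6 are the reddest for Chil3.

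Levels differed widely between the markers when divided by gene length (CPM per kilobase of exon). In C57BL/6 colon the highest level was that of Lyz2, at 72.4 ± 23.7 CPM per kb (SD, n = 8), followed by Cd68 at 6.84 ± 1.75 CPM per kb (SD, n = 8). Csf1r, Mrc1, Adgre1, Itgax, Itgam and Cd163 followed in this order, from 3.11 down to 0.521 CPM per kb, and the SD ranges of neighbours in this order overlapped. Spp1 and Chil3 came last at 0.153 and 0.0327 CPM per kb, below Cd163 by more than the SDs. In Winnie mice the order was the same except that Itgax stood above Adgre1, and that Chil3 stood above Cd163 and Spp1, all steps within the spread. In Winnie-Prolapse mice Chil3 moved to the third place with 9.06 ± 10 CPM per kb (SD, n = 7), Itgam moved to the fifth with 6.90 ± 4.74 CPM per kb (SD, n = 7), and Cd163 was the lowest at 0.431 ± 0.255 CPM per kb (SD, n = 7). Only the step from Lyz2 to Cd68 was larger than the SDs there.

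**Figure D3:**
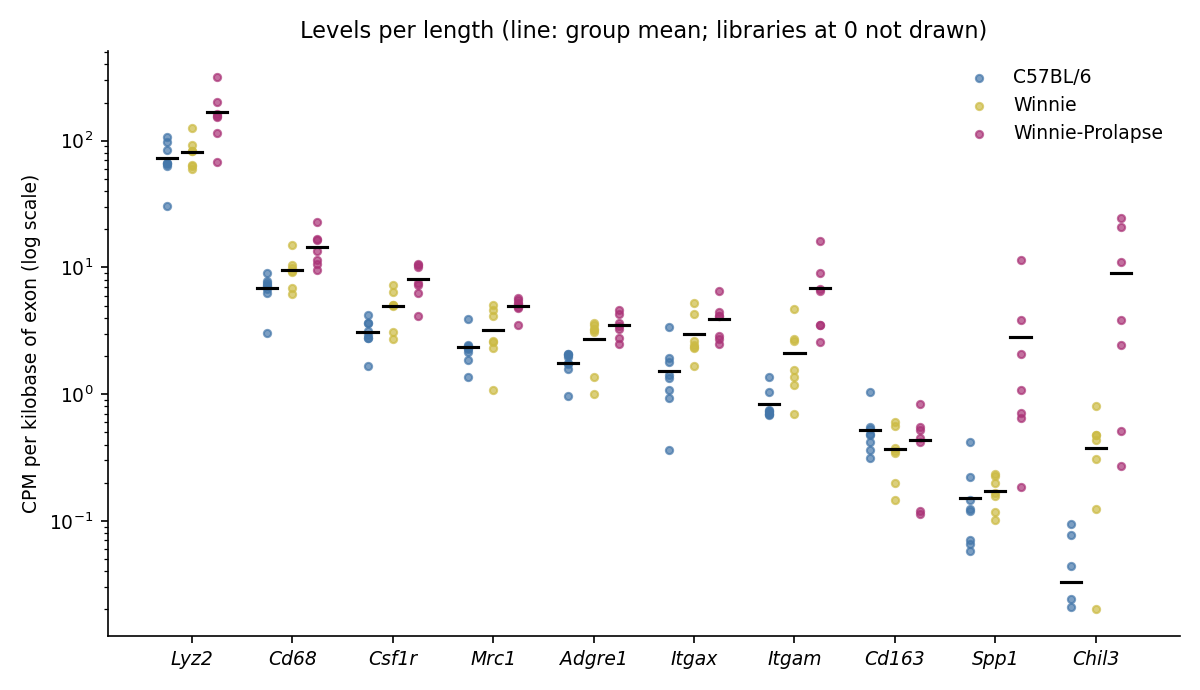
CPM per kilobase of exon (log scale) is plotted for each marker, ordered by its mean in C57BL/6, with 1 point per library and a line at the group mean. Lyz2 lies above the others in every group, and Spp1 and Chil3 spread over more than a factor of 10 in Winnie-Prolapse.

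Cd68 (ENSMUSG00000018774, chromosome 11, 69664213 to 69666153, minus strand, GRCm38) codes for a glycoprotein of the lysosomes of macrophages. Its level was 3.8 CPM at lowest, 9.03 at the median and 11.4 at highest in C57BL/6 libraries. In Winnie libraries the same values were 7.74, 11.7 and 19 CPM. In Winnie-Prolapse libraries they were 11.9, 16.8 and 28.6 CPM. The lowest control was replicate 7, and all 7 Winnie-Prolapse libraries lay above every control, while Winnie overlapped both groups. Cd68 rose by 1.16 ± 0.21 (SE) on the log2 scale in Winnie-Prolapse against C57BL/6 (edgeR quasi-likelihood test, adjusted p = 3.49e-04). Winnie mice differed from the controls by 0.56 ± 0.21 (adjusted p = 0.0569), and the Winnie groups differed by 0.60 ± 0.21 (adjusted p = 0.0882). Leaving out each library in turn, the call in Winnie-Prolapse held in 11 of 15 fits, with adjusted p up to 0.00135.

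Adgre1 (ENSMUSG00000004730, chromosome 17, 57358691 to 57483527, plus strand) codes for F4/80, an adhesion receptor that marks mature mouse macrophages. C57BL/6 libraries ran from 3.15 through a median of 6.02 to 6.72 CPM. Winnie libraries ran from 3.22 through 10.4 to 11.8 CPM, and Winnie-Prolapse libraries from 8.12 through 11.2 to 14.9 CPM. No Winnie-Prolapse library overlapped the controls. Among Winnie mice, 5 of 7 lay above every control, and replicates 5 and 7 were at control level. Adgre1 rose by 1.09 ± 0.19 (SE) on the log2 scale in Winnie-Prolapse against C57BL/6 (edgeR, adjusted p = 2.64e-04). In Winnie the difference was 0.71 ± 0.26 (adjusted p = 0.0524), and between the Winnie groups it was 0.39 ± 0.28 (adjusted p = 0.397). The call held in 13 of 15 fits without 1 library.

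Csf1r (ENSMUSG00000024621, chromosome 18, 61100598 to 61132149, plus strand) codes for the receptor of the growth factors Csf1 and Il34, on which most tissue macrophages depend. Its lowest, median and highest levels were 9.64, 17.6 and 24.3 CPM in C57BL/6. They were 15.7, 29.1 and 42 CPM in Winnie, and 23.9, 43.2 and 61.3 CPM in Winnie-Prolapse. Of the Winnie-Prolapse libraries, only replicate 2 fell within the control range. The increase against C57BL/6 was 1.46 ± 0.21 (SE) on the log2 scale in Winnie-Prolapse (edgeR, adjusted p = 4.54e-05), and it was called in 15 of 15 fits without 1 library. In Winnie it was 0.74 ± 0.21 (adjusted p = 0.0192), and between the Winnie groups 0.72 ± 0.24 (adjusted p = 0.0729). Csf1r overlaps Hmgxb3 on the other strand, and the strand setting of the counting was not given in the sources used here.

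Lyz2 (ENSMUSG00000069516, chromosome 10, 117277331 to 117282321, minus strand) codes for the lysozyme of macrophages and neutrophils, an enzyme that cuts bacterial cell walls. C57BL/6 libraries ran from 39.9 through a median of 87 to 140 CPM. Winnie libraries ran from 79.2 through 109 to 164 CPM, and Winnie-Prolapse libraries from 90 through 205 to 416 CPM. Winnie and C57BL/6 overlapped almost fully, and 6 of 7 Winnie-Prolapse libraries lay above every control. The log2 difference was 1.32 ± 0.29 (SE) in Winnie-Prolapse against C57BL/6 (edgeR, adjusted p = 0.00157), 0.26 ± 0.22 in Winnie (adjusted p = 0.4) and 1.06 ± 0.29 between the Winnie groups (adjusted p = 0.0379). Its near copy Lyz1, the lysozyme of Paneth cells, shares 1.97% of the windows of 100 bases of the Lyz2 transcript. Lyz1 had mean levels of 7.43, 7.03 and 8.11 CPM in C57BL/6, Winnie and Winnie-Prolapse, with a log2 difference of 0.20 ± 0.43 (SE) in Winnie-Prolapse (adjusted p = 0.708).

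**Figure D4:**
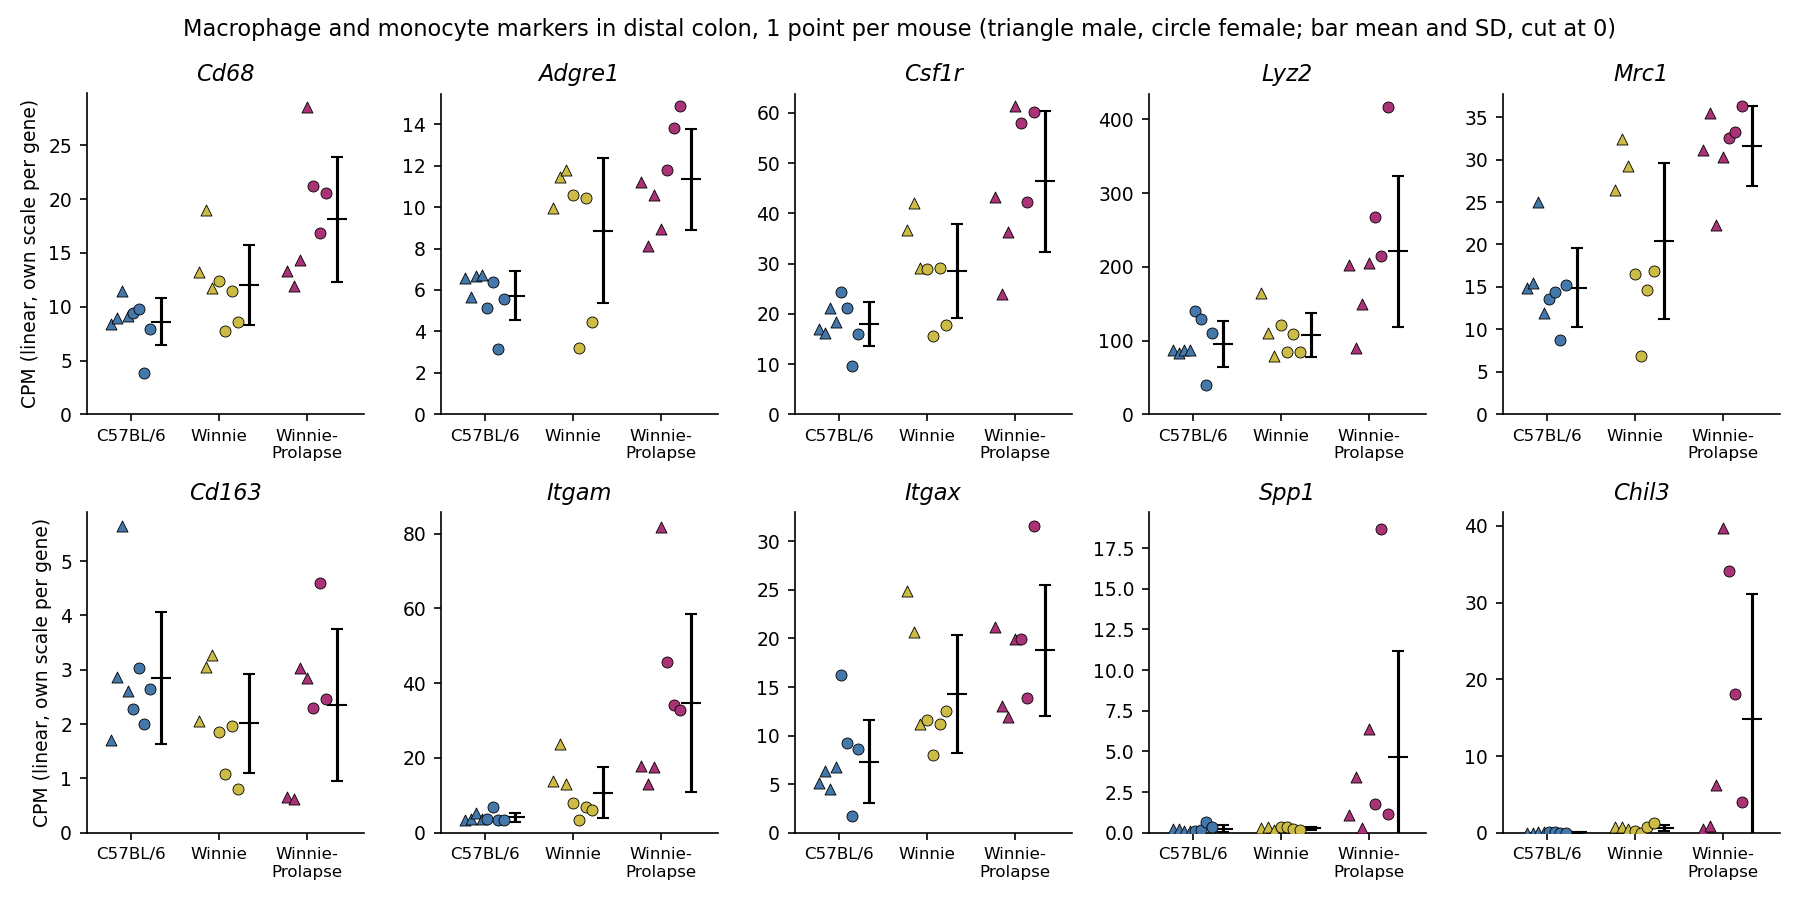
CPM of each marker on a linear axis from 0 is plotted by group, with 1 point per mouse (triangles are males, circles females) and bars for the mean and SD. Winnie-Prolapse points lie above all controls for Cd68, Adgre1, Itgam and Chil3, and the single high Spp1 point at 18.7 CPM is Winnie-Prolapse replicate 6.

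Mrc1 and Cd163 code for scavenger receptors, for mannose-rich glycoproteins and for haemoglobin bound to haptoglobin. Mrc1 (ENSMUSG00000026712, chromosome 2, 14229392 to 14332057, plus strand) had lowest, median and highest levels of 8.77, 14.6 and 25 CPM in C57BL/6. In Winnie they were 6.86, 16.9 and 32.4 CPM, and in Winnie-Prolapse 22.3, 32.5 and 36.3 CPM. Control replicate 3 was the highest of its group, and without it the controls would lie below every Winnie-Prolapse library. Mrc1 rose by 1.17 ± 0.17 (SE) on the log2 scale in Winnie-Prolapse against C57BL/6 (edgeR, adjusted p = 6.63e-05), a call kept in 15 of 15 fits without 1 library. The difference was 0.52 ± 0.27 in Winnie (adjusted p = 0.162) and 0.65 ± 0.25 between the Winnie groups (adjusted p = 0.112).

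Cd163 (ENSMUSG00000008845, chromosome 6, 124304656 to 124330527, plus strand) was the marker that did not follow the others. C57BL/6 libraries ran from 1.71 through a median of 2.63 to 5.65 CPM, Winnie libraries from 0.803 through 1.96 to 3.28 CPM, and Winnie-Prolapse libraries from 0.614 through 2.46 to 4.59 CPM. The 3 groups overlapped, and Winnie-Prolapse replicates 1 and 2 were the lowest of all libraries. The log2 difference against C57BL/6 was -0.44 ± 0.30 (SE) in Winnie (edgeR, adjusted p = 0.282) and -0.14 ± 0.41 in Winnie-Prolapse (adjusted p = 0.797). Between the Winnie groups it was 0.30 ± 0.45 (adjusted p = 0.701). The Winnie-Prolapse difference from C57BL/6 was -0.78 ± 0.62 in males alone (adjusted p = 0.365) and 0.53 ± 0.36 in females alone (adjusted p = 0.289). The sex by group interaction there was -1.31 ± 0.74 (unadjusted p = 0.0938, adjusted p = 0.96).

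Itgam and Itgax code for the alpha chains CD11b and CD11c of integrins that pair with the beta chain Itgb2. CD11b is known from monocytes, macrophages and neutrophils, and CD11c from dendritic cells and macrophages of the gut. Itgam (ENSMUSG00000030786, chromosome 7, 128062640 to 128118491, plus strand) had lowest, median and highest levels of 3.42, 3.68 and 6.84 CPM in C57BL/6. In Winnie they were 3.48, 7.84 and 23.6 CPM, and in Winnie-Prolapse 13.1, 32.7 and 81.8 CPM. No Winnie-Prolapse library overlapped the controls, and 5 of 7 Winnie libraries lay above every control.

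Itgam rose by 3.11 ± 0.34 (SE) on the log2 scale in Winnie-Prolapse against C57BL/6 (edgeR, adjusted p = 4.71e-06), called in 15 of 15 fits without 1 library. In Winnie the difference was 1.40 ± 0.32 (adjusted p = 0.00762), and without Winnie replicate 5 it was 1.56 ± 0.27 and was called (adjusted p = 8.98e-04). Replicate 5 had the lowest Itgam level of its group, and 3.89% of all genes were called in that fit. Between the Winnie groups the difference of Itgam was 1.71 ± 0.44 (adjusted p = 0.0305). Neutrophil markers moved in the same direction. Apart from Ly6g, the 13 genes of the list summed to between 0.978 and 4.63 CPM in C57BL/6, 2.43 and 163 CPM in Winnie and 84.3 and 1625 CPM in Winnie-Prolapse. Winnie-Prolapse replicate 4 was the highest of its group for both that sum and Itgam, and Winnie replicate 2 was so among Winnie mice. The part of neutrophils in the Itgam difference was not tested. The gene model Gm49368, which was not analysed here, lies over Itgam on the same strand and shares 71% of the windows of 100 bases of its transcript. Whether reads shared by genes were counted is not known here, so the level of Itgam per length and the level of its ratio to Itgax are uncertain.

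Itgax (ENSMUSG00000030789, chromosome 7, 128129547 to 128150657, plus strand) lies next to Itgam. C57BL/6 libraries ran from 1.74 through a median of 6.58 to 16.2 CPM, Winnie libraries from 7.97 through 11.6 to 24.9 CPM, and Winnie-Prolapse libraries from 12 through 19.9 to 31.5 CPM. Control replicate 5 was the highest of its group and lay among the Winnie-Prolapse libraries, so the groups overlapped. The log2 difference against C57BL/6 was 1.45 ± 0.34 (SE) in Winnie-Prolapse (edgeR, adjusted p = 0.0023) and 1.05 ± 0.35 in Winnie (adjusted p = 0.0383). Between the Winnie groups it was 0.40 ± 0.27 (adjusted p = 0.347).

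Spp1 and Chil3 code for secreted proteins, the glycoprotein osteopontin and the chitinase-like protein Ym1, which lacks chitinase activity. Both were near the counting limit in healthy colon, where 3 counts came to between 0.0952 and 0.118 CPM per library. Spp1 (ENSMUSG00000029304, chromosome 5, 104435118 to 104441050, plus strand) had 0.0952 CPM at lowest, 0.201 at the median and 0.688 at highest in C57BL/6. Winnie libraries had 0.167, 0.275 and 0.384 CPM, and Winnie-Prolapse libraries 0.303, 1.77 and 18.7 CPM. Winnie did not stand out from the controls, while 6 of 7 Winnie-Prolapse libraries lay above all controls and replicate 3 lay among them.

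Spp1 rose by 4.37 ± 0.82 (SE) on the log2 scale in Winnie-Prolapse against C57BL/6 (edgeR, adjusted p = 3.99e-04) and was called in 9 of 15 fits without 1 library, with adjusted p up to 0.00111. By limma-voom it was 3.36 and was not called (adjusted p = 0.00386). Against Winnie the difference was 4.13 ± 0.82 (adjusted p = 0.016). Replicate 6, the library with the milk genes, had the highest Spp1 level, and osteopontin is also made in the mammary gland. Without replicate 6 the increase against C57BL/6 was 3.19 ± 0.57 (adjusted p = 4.05e-04), and the mean of Winnie-Prolapse was 2.35 ± 2.23 CPM (SD, n = 6) in place of 4.69 ± 6.51 CPM (SD, n = 7). Spp1 shares 5.82% of its windows of 100 bases with the gene model Gm42793.

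Chil3 (ENSMUSG00000040809, chromosome 3, 106147554 to 106167564, minus strand) was barely counted in C57BL/6, with 12 counts in the 8 libraries together. These came to 0.0529 CPM (95% exact Poisson interval 0.0273 to 0.0924, counting error only), and 6 of the 8 libraries had at most 3 counts. The highest control was at 0.154 CPM. Winnie libraries ran from 0.0328 through a median of 0.705 to 1.31 CPM, and 6 of 7 lay above every control, with replicate 5 at 0.0328 CPM. Winnie-Prolapse libraries ran from 0.444 through 6.23 to 39.7 CPM, all above the controls, with replicates 1 and 2 in the Winnie range and replicates 4, 5 and 6 at 39.7, 34.2 and 18.1 CPM.

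The fitted log2 difference of Chil3 was 8.08 ± 1.07 (SE) in Winnie-Prolapse against C57BL/6 (edgeR, adjusted p = 2.25e-05), a size that depends on the few control counts. By limma-voom its adjusted p was 0.00154 and it was not called. Against Winnie it was 4.55 ± 0.95 (adjusted p = 0.018). Winnie against C57BL/6 fell below the filter on low counts, with 5 Winnie and 0 C57BL/6 libraries over its limit of 0.338 CPM. With no filter the difference there was 3.55 ± 0.68 (edgeR, adjusted p = 0.00424), and that of Spp1 was 0.26 ± 0.39 (adjusted p = 0.681). The near copy Chil4 had 0 counts in C57BL/6 and Winnie and 5 counts in all of Winnie-Prolapse. Chil3 shares 5.42% of its windows of 100 bases with Chil4 and Gm6522.

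The libraries that stood apart were left out together (C57BL/6 replicate 7, Winnie replicate 5 and Winnie-Prolapse replicate 6), an alternative chosen after the data were seen. The counts of called markers were then 7 for Winnie-Prolapse against the controls (5 of 8 without Spp1 and Chil3), beside 17.5% of all genes, and 0 for Winnie-Prolapse against Winnie, beside 0% of all genes. For Winnie against the controls the count was also 0, but beside 5.78% of all genes in place of 0.0925%. The Winnie-Prolapse count against C57BL/6 ran from 4 to 8 when each single library was left out (from 3 to 6 of 8 without Spp1 and Chil3), with 4 without C57BL/6 replicate 2, beside 15.8% of all genes called there.

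Ratios between markers within a library ask whether they changed alike, since a ratio does not depend on library size. Log2 ratios of counts were compared by 9 two-sided exact permutation tests, adjusted together. The ratio of Cd163 to Cd68 was lower in both Winnie groups. It had lowest, median and highest values of 0.204, 0.317 and 0.526 in C57BL/6, 0.0955, 0.157 and 0.281 in Winnie, and 0.0499, 0.109 and 0.274 in Winnie-Prolapse. Of the Winnie libraries 6 of 7, and of the Winnie-Prolapse libraries 5 of 7, lay below every control. The log2 ratio fell by 1.04 in Winnie (exact permutation test, p = 9.32e-04, adjusted p = 0.00699) and by 1.56 in Winnie-Prolapse (p = 0.00155, adjusted p = 0.00699). Between the Winnie groups it differed by -0.52 (exact permutation test, adjusted p = 0.372).

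The ratio of Itgax to Itgam had a median of 1.61 among controls, 1.63 among Winnie libraries and 0.68 among Winnie-Prolapse libraries. Its highest Winnie-Prolapse value was 1.19, and 4 of 7 Winnie-Prolapse libraries lay below every Winnie library. The log2 ratio fell by 1.30 in Winnie-Prolapse against C57BL/6 (exact permutation test, adjusted p = 0.035) and by 1.26 against Winnie (adjusted p = 0.021), and differed by -0.04 in Winnie against C57BL/6 (adjusted p = 0.923). The first of these passed 0.05 no longer when any of 8 single libraries was left out, and the second rose to an adjusted p of 0.0584 without the libraries that stood apart. Mrc1 to Cd68 had medians of 1.74, 1.70 and 1.77 in the 3 groups, and its log2 differences of -0.13, 0.05 and 0.18 had adjusted p from 0.704 to 0.902 in the exact permutation test.

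**Figure D5:**
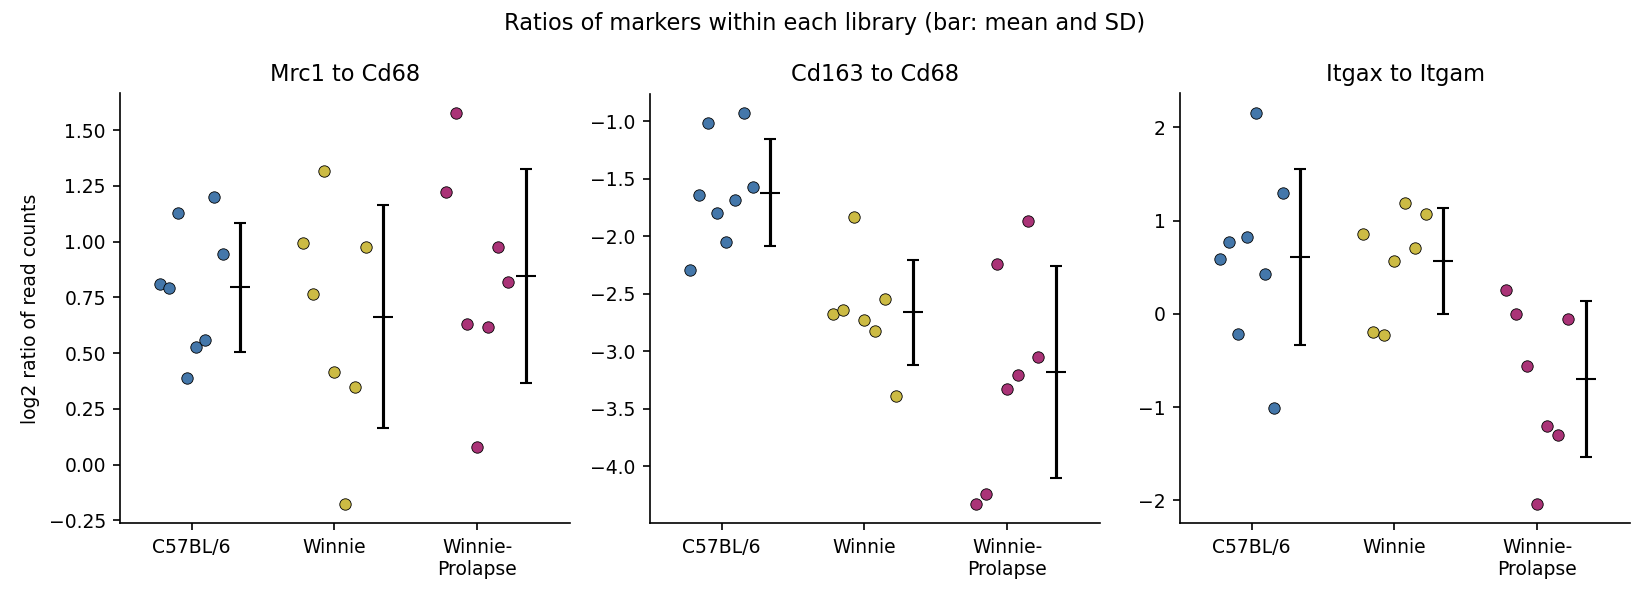
The log2 ratio of read counts is plotted for 3 pairs of markers, with 1 point per library and bars for the mean and SD of each group. Cd163 to Cd68 falls from -1.62 in C57BL/6 to -2.66 in Winnie and -3.18 in Winnie-Prolapse, Itgax to Itgam falls only in Winnie-Prolapse, and Mrc1 to Cd68 overlaps throughout.

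Males were compared with females in all 22 libraries, adjusting for group. Of the 10 markers 0 were called, beside 0.0675% of all genes, with 0 at an unadjusted p under 0.05, beside 4.37% of all genes (edgeR quasi-likelihood test). The log2 differences of males against females ran from -1.07 ± 0.53 (SE) for Spp1 to 0.34 ± 0.19 for Mrc1. Within the Winnie group the sexes lay apart for some markers. Itgam was between 13.1 and 23.6 CPM in the 3 Winnie males and between 3.48 and 7.84 CPM in the 4 Winnie females. Mrc1 was between 26.4 and 32.4 CPM in these males and between 6.86 and 16.9 CPM in the females. The sex by group interaction in Winnie against C57BL/6 was 1.47 ± 0.65 (SE) for Itgam (unadjusted p = 0.036, adjusted p = 0.355) and 1.36 ± 0.62 for Itgax (unadjusted p = 0.0412, adjusted p = 0.365), where 13.1% of all genes had an unadjusted p under 0.05. For Mrc1 it was 0.59 ± 0.38 (unadjusted p = 0.138, adjusted p = 0.505). No gene passed the interaction test at an adjusted p under 0.05 (0% of 18911 genes), in Winnie or in Winnie-Prolapse. Fitted on 1 sex alone, Winnie-Prolapse against C57BL/6 called 0 markers in males, beside 1.76% of all genes, and 1, Itgam, in females, beside 1.45% of all genes. Both shares lie far under the 18.3% called with the sexes together.

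Genes with the most similar pattern over the 22 libraries were found by the root mean square difference of standardised log2 CPM, as a description. For Cd68 they were Csf1r (0.276), Fcgr3 (0.282) and Tyrobp (0.316), where the median over 13594 genes was 1.38. Fcgr3 codes for an antibody receptor and Tyrobp for a signalling adaptor of myeloid cells. For Adgre1 they were C3ar1 (0.389), C1qb (0.394) and C1qc (0.457), genes of the complement system. For Spp1 they were Slc7a5 (0.411), Itpripl1 (0.429) and Mdfi (0.449), and of the markers compared Itgam was the nearest, in place 556. Cd163 was the marker least like Cd68 of those compared, in place 5307.

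Growth factors and their receptors were described next. Csf1 had lowest, median and highest levels of 9.64, 12.1 and 14.7 CPM in C57BL/6 and of 11.9, 17.1 and 29.5 CPM in Winnie-Prolapse, a log2 difference of 0.74 ± 0.18 (SE; edgeR, adjusted p = 0.00252) that was not called. Il34 had medians of 20.1, 17.7 and 18.5 CPM in C57BL/6, Winnie and Winnie-Prolapse, and a log2 difference of 0.17 ± 0.30 in Winnie-Prolapse (adjusted p = 0.658). Of the 6 genes tested in the list of growth factors and receptors, 3 were called higher in Winnie-Prolapse against C57BL/6, beside 9.84% of all genes, and 0 lower, with a median log2 difference of 1.72 beside -0.01 over all genes. Among the 3 was Csf3r, named after its value was seen, which also stands in the list of neutrophil markers. Csf2rb, the shared receptor chain for Csf2, rose by 3.10 ± 0.47 (SE; adjusted p = 7.4e-05), while Csf2ra differed by 0.37 (adjusted p = 0.00759).

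Itgb2, the beta chain shared by Itgam and Itgax, and other integrin partners were compared in the same way. Itgb2 had lowest, median and highest levels of 1.77, 4.84 and 10.6 CPM in C57BL/6, 6.27, 8.95 and 24.9 CPM in Winnie, and 14.8, 27 and 65.6 CPM in Winnie-Prolapse. Winnie-Prolapse did not overlap the controls, and the increase was 2.60 ± 0.37 (SE) on the log2 scale (edgeR, adjusted p = 3.89e-05). Cd44 and Itgav, receptors for osteopontin, rose by 1.94 ± 0.34 (adjusted p = 2.49e-04) and 1.31 ± 0.20 (adjusted p = 6.6e-05). Of the 10 genes tested in the list of integrin partners and ligands, 5 were called higher and 1 lower, beside 9.84% and 8.47% of all genes, with a median of 1.07. The gene that fell was Itga9, by 0.86 (adjusted p = 9.47e-04), named after its value was seen. Itgb5 differed by -0.03 (adjusted p = 0.869).

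Spi1, which codes for PU.1, the transcription factor that specifies myeloid cells, rose by 2.31 ± 0.34 (SE) in Winnie-Prolapse against C57BL/6 (edgeR, adjusted p = 6.09e-05). Its levels were 1.41, 2.96 and 6.02 CPM in C57BL/6 at lowest, median and highest, and 8.02, 12.7 and 35.7 CPM in Winnie-Prolapse, with no overlap. In Winnie the difference was 1.21 ± 0.33 (adjusted p = 0.0168). Of 10 myeloid transcription factors tested, 6 were called higher and 0 lower, beside 9.84% and 8.47% of all genes, with a median of 1.12. Irf8 rose by 1.15 (adjusted p = 7.07e-06), whereas Klf4 and Cebpa, which epithelial and fat cells also express, differed by -0.49 (adjusted p = 0.119) and 0.04 (adjusted p = 0.799).

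Promoters of 8 of the 10 markers (9 promoters, 2 of them of Spp1) were taken from RefSeq (GRCm38.p6), and Adgre1 and Csf1r had no entry. The letters GAGGAAGT, a form of the PU.1 motif, and their core GAGGAA, which lies inside them, were searched on both strands from 250 bases before to 50 after each start. GAGGAA was present for 4 of the 8 markers (Cd68, Mrc1, Itgam and Spp1), in 4 of their 9 promoters, and in 28.3% of all 32851 promoters of the same length. GAGGAAGT was present for 1 of the 8, Spp1, in 1 of the 9 promoters, and in 3.2% of all promoters. The promoters of the 3 markers with the largest increases are shown, with capitals for GAGGAA or its reverse TTCCTC and for GAGGAAGT. The second promoter of Spp1 had no match of either form and is not shown. A match describes letters and was not tested for binding.
Itgam, chr7:128062390-128062689, plus strand: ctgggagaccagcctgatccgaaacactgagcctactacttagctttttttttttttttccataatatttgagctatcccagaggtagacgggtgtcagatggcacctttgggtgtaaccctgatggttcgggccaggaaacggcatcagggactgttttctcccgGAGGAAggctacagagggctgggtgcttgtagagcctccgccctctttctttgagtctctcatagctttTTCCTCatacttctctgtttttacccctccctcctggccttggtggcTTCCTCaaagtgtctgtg
Spp1, chr5:104434861-104435160, plus strand: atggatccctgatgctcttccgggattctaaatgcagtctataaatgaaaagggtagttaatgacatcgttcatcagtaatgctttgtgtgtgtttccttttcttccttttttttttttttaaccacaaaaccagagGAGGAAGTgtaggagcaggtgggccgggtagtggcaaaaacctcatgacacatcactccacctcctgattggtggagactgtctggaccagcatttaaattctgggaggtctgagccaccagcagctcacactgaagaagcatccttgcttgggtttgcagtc
Chil3, chr3:106167515-106167814, minus strand: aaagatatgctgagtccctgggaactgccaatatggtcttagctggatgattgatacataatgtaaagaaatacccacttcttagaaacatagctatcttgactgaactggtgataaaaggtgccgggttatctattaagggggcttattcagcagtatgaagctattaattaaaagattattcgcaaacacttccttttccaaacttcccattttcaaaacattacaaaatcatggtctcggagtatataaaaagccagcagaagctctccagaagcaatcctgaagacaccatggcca

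Itgam had 3 matches of the core, beginning 84 and 15 bases before and 32 after the start, and Spp1 had the single match of the long form, 113 bases before the start. Chil3, the marker with the largest fold, had none in this window.

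Other genes of macrophages were compared in the same way. Of 19 other macrophage genes tested in Winnie-Prolapse against C57BL/6, 8 were called higher and 1 lower, beside 9.84% and 8.47% of all genes, with a median log2 difference of 0.75. Cd14, a receptor for bacterial lipopolysaccharide, rose by 2.46 ± 0.21 (SE; edgeR, adjusted p = 4.1e-07). C1qa and C1qb, complement genes of tissue macrophages, rose by 1.17 (adjusted p = 1.22e-04) and 1.37 (adjusted p = 5.05e-05). Mertk, a receptor for dying cells and the gene that fell, was named after its value was seen. Its lowest, median and highest levels were 48, 64.6 and 78.9 CPM in C57BL/6 and 13.2, 18.9 and 28.7 CPM in Winnie-Prolapse, and it fell by 1.48 ± 0.18 on the log2 scale (adjusted p = 1.28e-05).

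Of 17 recruited monocyte and activated macrophage genes tested, 11 were called higher and 0 lower. Of these 17, 4 passed the filter on low counts through Winnie-Prolapse, and of the other 13, 7 were called higher, beside 9.84% of all genes. Nos2, which makes nitric oxide and is also expressed by inflamed epithelium, rose by 6.99 ± 0.61 (SE; edgeR, adjusted p = 5.26e-07), from a median of 2.87 CPM in C57BL/6 through 54.1 CPM in Winnie to 452 CPM in Winnie-Prolapse. Ccr2, the receptor by which monocytes leave the marrow, was named after its value was seen and rose by 2.56 ± 0.29 (adjusted p = 5.11e-06), with no overlap between Winnie-Prolapse and C57BL/6. The most abundant genes of the list, Plac8 and Fn1, which other colon cells express, differed by 0.83 (adjusted p = 0.00212) and -0.01 (adjusted p = 0.961).

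Of 13 lysosome and lipid-handling genes of macrophages tested, 2 were called higher and 0 lower, beside 9.84% and 8.47% of all genes, with a median of 0.54. The most abundant, Lgals3, Ctsb and Lamp1, are expressed throughout the colon and differed by 0.02, 0.36 and -0.01 (edgeR, adjusted p = 0.943, 0.0031 and 0.905). Among close relatives of the markers 1 of 5 was called higher, beside 9.84% of all genes. This was Chil1, a chitinase-like relative of Chil3, named after its value was seen, which passed the filter through Winnie-Prolapse. Chil1 rose by 4.43 ± 0.59 (SE; edgeR, adjusted p = 2.24e-05). Mrc2 differed by 0.80 (adjusted p = 0.00216) and Adgre5 by -0.28 (adjusted p = 0.242). In Winnie against C57BL/6 and in Winnie-Prolapse against Winnie, edgeR called 0 genes of each of these lists. At an adjusted p under 0.05 and 1.5-fold, Winnie against C57BL/6 had 8 of 19 other macrophage genes higher and 2 lower, 7 of 15 recruited and activated genes higher and 0 of 13 lysosome and lipid genes, beside 7.42% of all genes higher and 8.53% lower. Between the Winnie groups 5 of 19, 10 of 18 and 2 of 13 were higher, beside 4.27% of all genes.

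Markers of other cells moved beside these results. Of 8 neutrophil markers tested in Winnie-Prolapse against C57BL/6, 7 were called higher, but 5 of these had fewer control libraries over the limit of the filter on low counts than it asks for, and so passed through Winnie-Prolapse. Of the other 3, 2 were called higher, beside 9.84% of all genes. Among the 5 that passed through Winnie-Prolapse, S100a9 rose by 9.78 ± 0.93 (SE; edgeR, adjusted p = 1.21e-06) and Ltf by 9.68 ± 1.14 (adjusted p = 7.88e-06). In Winnie-Prolapse Ltf had a median of 97.7 CPM and a highest level of 1123 CPM. Its fit without replicate 6, the library with the milk genes, is not given. Ly6g, at a median of 286 CPM and a lowest level of 3.8 CPM in C57BL/6, differed by 1.02 ± 0.51 (adjusted p = 0.104). The fit of Ly6g without C57BL/6 replicate 7 is not given. The granule genes Mpo and Elane, named after their values were seen, had group means of at most 0.0535 and 0.0482 CPM. Of 10 dendritic cell markers tested 1 was called higher, beside 9.84% of all genes, and this gene, Batf3, named after its value was seen, passed the filter on low counts through Winnie-Prolapse. The list summed to between 7.72 and 21.4 CPM in C57BL/6 and between 13.7 and 31.1 CPM in Winnie-Prolapse. Of 10 T and B cell markers 5 were called higher, beside 9.84% of all genes. Of these, 1 passed the filter through Winnie-Prolapse, and of the other 9 markers 4 were called higher. Cd79a and Cd79b, chains of the B cell receptor and among the most abundant of the list, differed by 0.48 and 0.24 (adjusted p = 0.505 and 0.732).

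The 10 smooth muscle and fibroblast markers summed to between 5998 and 10862 CPM in C57BL/6 and between 1829 and 4382 CPM in Winnie-Prolapse. The 5 smooth muscle genes among them were called lower, beside 8.47% of all genes. The 5 fibroblast genes were not called, and their log2 differences ran from 0.19 (Dcn, adjusted p = 0.51) to 1.19 (Col1a1, adjusted p = 0.00247), named after their values were seen. Myh11, Acta2 and Des fell by 1.98, 1.64 and 1.78 on the log2 scale (edgeR, adjusted p = 1.25e-05, 1.26e-05 and 8.12e-06). Of 10 epithelial markers 2 were called lower and 0 higher, beside 8.47% of all genes called lower, with Slc26a3, a chloride exchanger of surface cells, at -2.55 (adjusted p = 7.14e-04) and Krt8 at 0.19 (adjusted p = 0.285). Of 6 eosinophil and mast cell markers 4 were called higher and 1 lower, beside 9.84% and 8.47% of all genes. All 4 passed the filter on low counts through Winnie-Prolapse, and of the other 2, 0 were called higher. The gene called lower was Kit, which also marks the pacemaker cells of the muscle. The mast cell proteases Mcpt1 and Mcpt2 rose by 2.62 (adjusted p = 1.32e-04) and 3.85 (adjusted p = 5.16e-05). Of 2 Paneth cell markers tested 1 was called higher, beside 9.84% of all genes, namely Pla2g2a, by 6.26 (adjusted p = 4.52e-08). Ang4, another abundant gene of that list, did not pass the filter on low counts there and had medians of 2.28, 1.91 and 0.207 CPM in the 3 groups. The milk genes were called in no comparison. A change in the share of these cells in the sampled wall and the differences of the macrophage markers cannot be told apart in whole tissue.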

How the data were processed

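Poly(A) RNA of 22 distal colons was sequenced from a stranded kit, and the authors deposited a table of raw counts per gene, with no normalisation. The submitters' processing notes name STAR, featureCounts and the build GRCm38. The strand setting and the handling of reads shared by genes were not given in the sources used here. Gene positions and lengths were taken from GENCODE M21, which matched 45143 of the 46078 gene IDs, and 216 symbols belong to more than 1 gene. No row lacked a gene name. Libraries held 24.8 to 36.3 M counts, and 3 counts, the limit that a count of 0 allows, came to between 0.0825 and 0.121 CPM. Intervals cover counting error only.

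Groups and sexes were read from the labels, which describe each library as its own mouse. No libraries of a group agreed within sampling noise (lowest chi-square per degree of freedom 28.8). Pairs of groups were fitted with edgeR 4.0.16 in R 4.3.3 (TMM factors, filterByExpr, quasi-likelihood F test, Benjamini-Hochberg adjustment over all genes tested). The threshold was an adjusted p under 0.001 and 1.5-fold. Ratios of counts, with 0.5 added, were compared by exact permutation in scipy 1.17.1. In simulated counts of Winnie-Prolapse against C57BL/6, 84, 158 and 184 of 200 changed genes were recovered at 2-fold, 4-fold and 8-fold. For Winnie against C57BL/6 the numbers were 98, 168 and 180 of 200, and for Winnie-Prolapse against Winnie 61, 160 and 179 of 200. The simulated counts were drawn separately for each gene, with no library that stands apart over many genes. They therefore do not show what share of real changes was found.

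The markers, gene lists and tests were chosen with earlier results of these data known. Genes named in the text are the 10 markers, 8 direct partners or relatives of them, the 3 most abundant genes of lists, and the 3 genes nearest in pattern to Cd68, Adgre1 and Spp1, and others are said to be named after their values were seen. A gene that this rule names is not reported here. Alternatives were DESeq2 1.42.0, limma-voom (limma 3.58.1), no TMM factors, other filters, thresholds and quasi-likelihood fits, sex as a covariate, 1 sex alone, all 3 groups in one fit, 10 in place of 0.5 in ratios, and leaving out each library.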

Additional observations from a re-analysis of the deposited data

Results flagged for a closer look

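Single libraries stood far from the rest of their group by Dixon's test in 7 of 39 groups of values checked, where chance gives about 1 in 20. In C57BL/6 replicate 7, Cd68 was at 3.8 CPM with the next control at 7.88 CPM, Adgre1 was at 3.15 CPM with the next at 5.13 CPM, and Spp1 was high at 0.688 CPM with the next at 0.364 CPM. In C57BL/6 replicate 3, both scavenger receptors were high, Mrc1 at 25 CPM with the next at 15.5 CPM and Cd163 at 5.65 CPM with the next at 3.03 CPM. In Winnie-Prolapse replicate 3, Mrc1 was low at 22.3 CPM with the next at 30.2 CPM. In Winnie-Prolapse replicate 6, the library with the milk genes, Spp1 was at 18.7 CPM with the next at 6.38 CPM.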

How the results depend on the processing

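Alternatives other than those named here left the counts of called markers within 1.5 times of the values reported. DESeq2 called 2 markers in Winnie against C57BL/6 and 2 in Winnie-Prolapse against Winnie. An adjusted p under 0.05 gave 3 and 4. In Winnie-Prolapse against C57BL/6, males alone gave 0 called and females alone 1. By limma-voom the adjusted p of Chil3 and Spp1 there was 0.00154 and 0.00386, above the limit of 0.001. Without single libraries the counts ran from 0 to 1 in Winnie against C57BL/6, beside 0% to 3.89% of all genes, the highest without Winnie replicate 5. They ran from 4 to 8 in Winnie-Prolapse against C57BL/6, beside 14.4% to 20.8% of all genes, and were 0 in Winnie-Prolapse against Winnie. The cause was not tested.

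Cd163 changed sign in Winnie-Prolapse against C57BL/6, to 0.53 in females alone, and from -0.44 to 0.10 without single libraries. In Winnie-Prolapse against Winnie it was -0.58 in males alone, -0.13 without the libraries that stood apart, and from -0.0209 to 0.49 without single libraries. In males alone Adgre1 was -0.16 and Itgax -0.20 there.

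The log2 ratio of Cd163 to Cd68 in Winnie against C57BL/6 was -0.70 in males and -1.31 in females, and from -1.18 to -0.92 without single libraries. In Winnie-Prolapse against C57BL/6 it was -1.85 in males and -1.15 in females, and from -1.78 to -1.37. In Winnie-Prolapse against Winnie it was 0.16 in females, and from -0.74 to -0.33. The ratio of Itgax to Itgam in Winnie against C57BL/6 was 0.17 in females, and from -0.27 to 0.18. In Winnie-Prolapse against C57BL/6 it was -1.08 in males and -1.57 in females, and from -1.54 to -1.08, with adjusted p up to 0.0749 without 1 of 8 libraries (C57BL/6 replicates 1, 2, 4, 5 and 8, Winnie-Prolapse replicates 4, 5 and 6). In Winnie-Prolapse against Winnie it was -0.73 in males, -1.73 in females and -1.06 without the libraries that stood apart, and from -1.42 to -1.04. The ratio of Mrc1 to Cd68 in Winnie against C57BL/6 was 0.25 in males and 0.0668 without the libraries that stood apart, and from -0.24 to 0.0088. In Winnie-Prolapse against C57BL/6 it was -0.0037 in females, and from -0.0695 to 0.18. In Winnie-Prolapse against Winnie it was -0.15 in males, and from 0.04 to 0.31. With 1 sex alone the ratio tests have too few mice to pass 0.05 after adjustment. No paired analysis was possible because the replicate numbers were given in accession order and pair no animals. Counts of at most 3 per library limit Chil3 in C57BL/6.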
